A study of Mus musculus with 8 samples.

Results

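The NR4A receptors and immediate-early genes are 10 transcription factor and early-response genes, of 19938 genes measured, whose transcripts were followed in mouse hematopoietic stem cells after granulocyte colony-stimulating factor (G-CSF). They are the orphan nuclear receptors Nr4a1, Nr4a2 and Nr4a3, the AP-1 subunits Fos, Fosb, Jun, Junb and Jund, the zinc-finger factor Egr1, and Ier2, a nuclear protein of the early growth-factor response. The genes were chosen by name, with their G-CSF and PBS values already known, so the differences between the groups below are a description and carry no test. Each gene had 1 probe set with its symbol alone, so the step that keeps the brightest probe set removed none of the 10.

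The cells were KSL SLAM cells from bone marrow, a sort gate that takes stem cells positive for c-Kit, Sca-1 and CD150 and free of lineage markers, CD48 and CD41. The G-CSF group had 4 arrays, from mice given 125 mcg/kg of the cytokine under the skin 2 times a day, at 36 h. The PBS group had 4 arrays, from mice given saline and taken at 36 h as well. Each array held amplified RNA of cells pooled from 5 to 10 mice, so it averages over animals, and the design text describes the groups of mice as independent. The expression platform was the MoGene 1.0 ST array. The labels give no strain, sex or age for the mice.

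Immediate-early genes are switched on within minutes of a stimulus without new protein synthesis, by MAP kinases, serum response factor and CREB acting on their promoters, and most of their messengers are short-lived. FOS and JUN proteins pair into AP-1, EGR1 binds GC-rich elements, and NR4A receptors act without a known natural ligand. In mouse stem cells, Egr1 is known for holding cells quiescent and in their niche, Nr4a1 and Nr4a3 for restraining proliferation, and Junb for limiting myeloid expansion. The same genes are also known to respond to tissue dissociation and cell sorting.

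An array differed from the rest over all genes, PBS replicate 3, and it touches most results. Its log2 intensities over all genes had an interquartile range of 1.68, against 2.42 to 2.80 on the other arrays, and it correlated with the other arrays at 0.883 to 0.903, whereas the others correlated with each other at 0.956 to 0.977. Values are therefore given with it and without it. Of the markers of other cells, those of neutrophils had higher values after G-CSF. The 14 of 16 listed neutrophil markers averaged log2 intensities of 10.81, 10.85, 8.60 and 9.26 in G-CSF replicates 1 to 4, against 8.34, 7.33, 7.75 and 7.61 in PBS replicates 1 to 4. The log2 fold change (G-CSF minus PBS) was above 0 for all 14, its median was 1.99, and the array means of the groups did not overlap. None of the 14 passed an adjusted p of 0.05 over all genes (limma), while 14 were higher and 0 lower at an unadjusted p under 0.05. In other settings some passed as higher, 1 without PBS replicate 3, 1 with array weights, 2 with the replicate block and 4 without G-CSF replicate 3. The sort gate should remove cells that carry the myeloid marker Itgam (CD11b), whose log2 intensity was 8.13, 8.54, 7.03 and 7.37 after G-CSF and 6.65, 5.91, 5.25 and 6.55 after PBS. The part of these cells' transcripts in the results below was not tested. Kit, which encodes the c-Kit receptor of the gate, had log2 intensities of 10.40, 10.49, 10.24 and 10.26 after G-CSF and 10.67, 10.75, 10.45 and 10.94 after PBS. The median log2 fold change was -0.03 for 12 stem cell markers, 0.84 for 8 monocyte markers, -0.32 for 6 B cell markers, -0.09 for 6 T and NK cell markers, -0.28 for 5 megakaryocyte markers, -0.24 for 5 erythroid markers and 0.09 for 10 markers that the gate should exclude. The lowest megakaryocyte marker had -1.25. At an unadjusted p under 0.05 (limma), 5 of the 8 monocyte markers were higher and 0 lower, and 2 of the 10 gate-excluded markers were higher and 0 lower. Of those 10, 5 had a mean intensity above that of the median gene. All 5 had a log2 fold change above 0, with a median of 0.64 and a highest of 1.68, against a median of 0.13 for all genes that bright.

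The 10 genes did not move as a block between the groups. Over all arrays the log2 fold change was below 0 for 7 and above 0 for 3, with a median of -0.17 against -0.07 for all genes. Of all genes, 41.7% were above 0, so most genes were on the same side as most members. When PBS replicate 3 was left out, 9 were negative and 1, Junb, was positive, with a median of -0.38 against -0.02 for all genes. The share of all genes below 0 was not counted in that setting. The all-gene median depended on dim genes. Among the brighter genes, those with a mean intensity above the median gene, it was 0.13 over all arrays. The 9 members among them had a median of -0.17. None of the 10 passed an adjusted p of 0.05 in limma over all genes, in any of 17 alternative settings, and nothing is read from that count because the contrast was known when the genes were chosen. In the same fit 0.0953% of all genes passed as higher and 0% as lower, while 1211 genes were higher and 586 lower at an unadjusted p under 0.05. The values come from bulk RNA of sorted cells, so fewer cells of a type and less RNA per cell cannot be told apart.

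**Figure D1:**
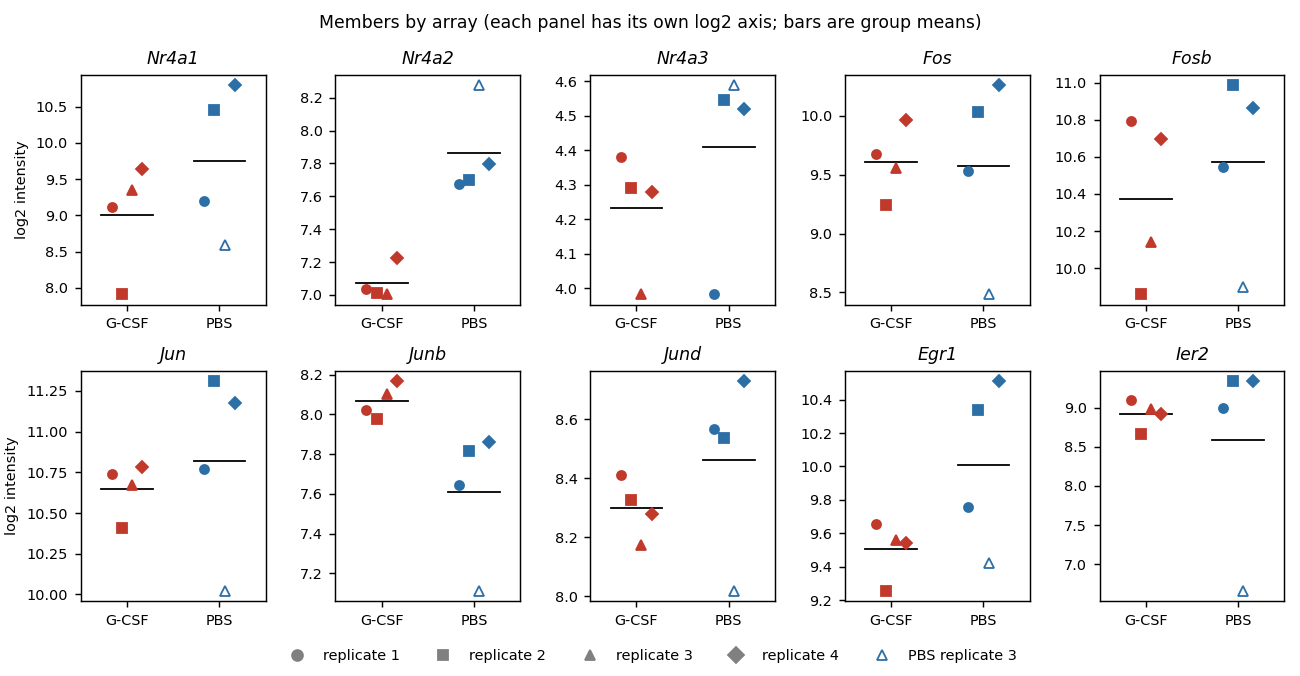
Log2 intensity (vertical axis, its own scale in each panel) of the 10 genes on the 4 G-CSF arrays (red) and the 4 PBS arrays (blue), with marker shapes for replicates and bars for group means. The open triangle is PBS replicate 3, which is the lowest PBS array for 8 of the 10 genes and the highest for Nr4a2 and Nr4a3.

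Nr4a2, the receptor also called Nurr1, was the member most separated between the groups. Its log2 intensities were 7.04, 7.01, 7.01 and 7.23 in G-CSF replicates 1 to 4, against 7.67, 7.70, 8.28 and 7.80 in PBS replicates 1 to 4. All G-CSF arrays lay below all PBS arrays, the closest pair being G-CSF replicate 4 and PBS replicate 1. It averaged 7.07 ± 0.10 after G-CSF and 7.86 ± 0.28 after PBS (SD, n = 4 each), which is 1.73-fold lower, a log2 fold change of -0.79 ± 0.18 SE with a 95% interval of -1.19 to -0.39. In limma over all genes its adjusted p was 0.208, and it was 0.15 without PBS replicate 3, where the log2 fold change was -0.65 ± 0.13 SE. The G-CSF arrays lay wholly below the PBS arrays at 2.78% of all genes, and Nr4a2 was the 1 of the 10 members that did so.

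Nr4a1, the receptor also called Nur77, had a wider spread among the G-CSF arrays than any other member. It had log2 intensities of 9.12, 7.91, 9.34 and 9.63 in G-CSF replicates 1 to 4, against 9.19, 10.45, 8.59 and 10.80 in PBS replicates 1 to 4. PBS replicates 2 and 4 were above every G-CSF array, but PBS replicates 1 and 3 lay within the G-CSF range, so the groups overlapped. The mean was 9.0 ± 0.76 after G-CSF and 9.76 ± 1.04 after PBS (SD, n = 4 each), a log2 fold change of -0.75 ± 0.50 SE with a 95% interval of -1.84 to 0.34. It was -1.14 ± 0.46 SE without PBS replicate 3, -0.39 without G-CSF replicate 2, the lowest array of all, and -0.41 without PBS replicate 4, so each of these arrays moved the value by more than 1.5 times.

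Nr4a3, or Nor1, was the dimmest member and the 1 not among the brighter genes, which held 9 of the 10. It stayed in the main fit, which had no filter on dim genes. Without detection calls it cannot be told from background. Its log2 intensities were 4.38, 4.29, 3.98 and 4.28 in G-CSF replicates 1 to 4, against 3.98, 4.54, 4.59 and 4.52 in PBS replicates 1 to 4. PBS replicates 2, 3 and 4 were above every G-CSF array, and PBS replicate 1 equalled the lowest G-CSF array. The log2 fold change was -0.18 ± 0.19 SE with a 95% interval of -0.59 to 0.24, and it was -0.12 without PBS replicate 3. It was -0.32 without PBS replicate 1, the lowest PBS array, and -0.09 without G-CSF replicate 3, the lowest G-CSF array.

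Promoter sequences of the NR4A genes are shown for the elements they hold that EGR and CREB factors are known to bind, as Egr1 is itself a member. Whether EGR1 acts on these genes in these cells was not tested. Over the 8 arrays the log2 intensity of Egr1 correlated at 0.93 with Nr4a1, 0.36 with Nr4a2 and 0.37 with Nr4a3. Without PBS replicate 3 these correlations were 0.92, 0.85 and 0.60. After the group means of those 7 arrays were taken away as well, they were 0.89, 0.41 and 0.69. By rank over all 8 arrays they were 0.79, 0.36 and 0.10. The values for Nr4a2 and Nr4a3 thus depended on the measure and on PBS replicate 3, and that for Nr4a2 was lower within the groups. The promoter sequences are RefSeq sequences of build GRCm38.p6, which the deposited values do not name. Of the 10 members, 8 had a promoter window of 250 bases before to 50 after the start, and Egr1 and Ier2 are named only. The EGR element, searched on both strands as GCGNGGGCG, was found in the windows of Nr4a1, Nr4a2 and Fosb, against 5.55% of 32851 promoter windows. The core of the cAMP response element, TGACGT, which is also contained in the full element TGACGTCA, was found in the windows of Nr4a3 and Fos, against 7.51% of windows. Nr4a3 held it 3 times, starting 231, 205 and 147 bases before the start. The Nr4a1 match, 60 bases before the start, reads on the other strand, and that of Nr4a2 starts 74 bases before it. The stretches run 5′ to 3′ along the gene, with the matches in capitals. They lie at chr15:101266736-101266845 (plus strand), chr2:57124004-57124113 (minus strand) and chr4:48045065-48045174 (plus strand).
Nr4a1: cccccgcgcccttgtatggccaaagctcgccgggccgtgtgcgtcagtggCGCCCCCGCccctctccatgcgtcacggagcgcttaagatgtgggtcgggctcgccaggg
Nr4a2: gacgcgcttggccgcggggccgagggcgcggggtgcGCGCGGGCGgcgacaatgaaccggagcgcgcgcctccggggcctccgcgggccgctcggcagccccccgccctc
Nr4a3: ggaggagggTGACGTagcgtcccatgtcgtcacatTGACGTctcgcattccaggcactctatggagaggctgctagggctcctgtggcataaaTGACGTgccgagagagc

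Among the AP-1 subunits, Junb was the 1 member with every G-CSF array above every PBS array. Its log2 intensities were 8.02, 7.98, 8.10 and 8.17 in G-CSF replicates 1 to 4, against 7.64, 7.82, 7.11 and 7.86 in PBS replicates 1 to 4. It averaged 8.07 ± 0.08 after G-CSF and 7.61 ± 0.34 after PBS (SD, n = 4 each), which is 1.38-fold higher, a log2 fold change of 0.46 ± 0.19 SE with a 95% interval of 0.03 to 0.89. Leaving out PBS replicate 3 gave a log2 fold change of 0.29 ± 0.13 SE, and the groups still did not overlap, with 0.12 between G-CSF replicate 2 and PBS replicate 4. The G-CSF arrays lay wholly above the PBS arrays at 3.37% of all genes, and at 4.76% without PBS replicate 3. After quantile normalization without PBS replicate 3, Junb had 0.22 with a 95% interval of -0.06 to 0.50.

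Jund, the AP-1 subunit that most cells hold at a steady level, was lower after G-CSF than on 3 of the 4 PBS arrays. It had log2 intensities of 8.41, 8.33, 8.17 and 8.28 in G-CSF replicates 1 to 4, against 8.57, 8.54, 8.02 and 8.73 in PBS replicates 1 to 4. All G-CSF arrays were below PBS replicates 1, 2 and 4 and above PBS replicate 3. The log2 fold change was -0.16 ± 0.19 SE over all arrays, -0.31 ± 0.13 SE without PBS replicate 3 and -0.08 without PBS replicate 4.

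Fos, the partner that dimerises with the JUN proteins, had nearly the same mean in both groups, 9.61 ± 0.30 after G-CSF and 9.58 ± 0.79 after PBS (SD, n = 4 each). The arrays read 9.67, 9.24, 9.56 and 9.96 in G-CSF replicates 1 to 4, against 9.53, 10.03, 8.49 and 10.26 in PBS replicates 1 to 4. PBS replicates 2 and 4 were the highest of the 8 arrays and PBS replicate 3 the lowest. The log2 fold change was 0.03 with a 95% interval of -0.72 to 0.79, and -0.33 without PBS replicate 3 with an interval of -0.83 to 0.17. Its sign was not settled by these arrays, since it was also -0.09 without G-CSF replicate 4 and -0.15 after quantile normalization, but 0.16 without G-CSF replicate 2, 0.18 without PBS replicate 2 and 0.26 without PBS replicate 4.

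Fosb, a FOS family member that also pairs with JUN proteins, had log2 intensities of 10.80, 9.86, 10.14 and 10.70 in G-CSF replicates 1 to 4, against 10.55, 10.99, 9.90 and 10.87 in PBS replicates 1 to 4. PBS replicates 2 and 4 were above every G-CSF array, and PBS replicates 1 and 3 lay within the G-CSF range. Its log2 fold change was -0.20 ± 0.28 SE, and with 1 array left out at a time it ran from -0.43 without PBS replicate 3 to -0.03 without G-CSF replicate 2, with -0.06 without PBS replicate 2, -0.10 without PBS replicate 4, -0.12 without G-CSF replicate 3, -0.34 without G-CSF replicate 1 and -0.31 without G-CSF replicate 4. Jun, the founding AP-1 subunit, had 10.74, 10.41, 10.67 and 10.78 in G-CSF replicates 1 to 4, against 10.77, 11.31, 10.02 and 11.18 in PBS replicates 1 to 4. PBS replicates 2 and 4 were above every G-CSF array, PBS replicate 1 was just below G-CSF replicate 4, and PBS replicate 3 was below them all. Its log2 fold change was -0.17 ± 0.26 SE. Single arrays moved it widely, to -0.44 ± 0.17 SE without PBS replicate 3, -0.01 without PBS replicate 2, -0.05 without PBS replicate 4 and -0.09 without G-CSF replicate 2.

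The promoter stretches of Fos and Fosb are shown for the elements that signal-driven factors use. That of Fos holds the core of the cAMP response element 66 bases and a TATA box, TATAAA, 33 bases before the start, and that of Fosb holds an EGR element 50 bases before it. Searched on both strands, TATAAA was found in 13.6% of all windows. Among the members it was also found in the window of Junb, at the start itself, and in that of Nr4a2, on the other strand 164 bases before the start, so neither lies where that of Fos does. No match to the AP-1 element TGANTCA, the NBRE AAAGGTCA that NR4A receptors bind, the STAT element TTCNNNGAA, the full cAMP response element or the CArG box of serum response factor was found in the 8 windows, against 7.81%, 1.51%, 8.3%, 1.79% and 1.63% of all windows in that order. The windows are short, so this says only that these letters are not in them. The stretches lie at chr12:85473780-85473889 (plus strand) and chr7:19310046-19310155 (minus strand), in build GRCm38.p6.
Fos: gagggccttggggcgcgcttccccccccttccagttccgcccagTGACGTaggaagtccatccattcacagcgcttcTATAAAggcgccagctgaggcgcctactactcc
Fosb: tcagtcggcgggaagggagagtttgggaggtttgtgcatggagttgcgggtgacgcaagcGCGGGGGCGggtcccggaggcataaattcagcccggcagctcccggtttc

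Egr1 had log2 intensities of 9.66, 9.26, 9.56 and 9.54 in G-CSF replicates 1 to 4, against 9.76, 10.34, 9.42 and 10.51 in PBS replicates 1 to 4. The G-CSF arrays were below PBS replicates 1, 2 and 4, whereas PBS replicate 3 lay between G-CSF replicates 2 and 4. It averaged 9.50 ± 0.17 after G-CSF and 10.01 ± 0.51 after PBS (SD, n = 4 each), which is 1.42-fold lower, a log2 fold change of -0.50 ± 0.24 SE with a 95% interval of -1.04 to 0.03. Leaving out PBS replicate 3 made it 1.62-fold lower, a log2 fold change of -0.70 ± 0.20 SE with an interval of -1.14 to -0.25 and a limma adjusted p of 0.333 over all genes. In that setting Nr4a2, Jund and Egr1 had every G-CSF array below every PBS array, as did 3.94% of all genes.

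Ier2 depended on PBS replicate 3 more than any other member. It had log2 intensities of 9.10, 8.66, 8.99 and 8.92 in G-CSF replicates 1 to 4, against 9.0, 9.34, 6.66 and 9.33 in PBS replicates 1 to 4. PBS replicate 3 minus the mean of the other PBS arrays was -2.56. The log2 fold change was 0.34 ± 0.50 SE with it and -0.30 ± 0.16 SE without it, and 0.59 without either PBS replicate 2 or PBS replicate 4.

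**Figure D2:**
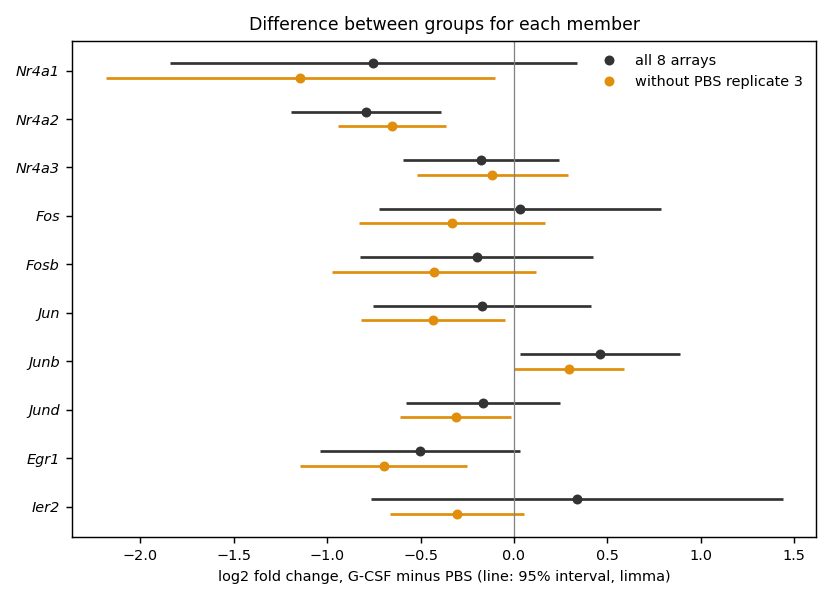
Log2 fold change (G-CSF minus PBS, horizontal axis) of each gene with its 95% limma interval, over all 8 arrays (dark) and without PBS replicate 3 (orange). Fos and Ier2 have opposite signs in the 2 settings, Junb is positive in both, and Nr4a2, Egr1 and Nr4a1 have the most negative values.

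Arrays of the same group differed widely for many of these genes. The SD was larger in the PBS group than in the G-CSF group for all 10 genes over all arrays. It was larger for 8 of the 10 without PBS replicate 3, the exceptions being Nr4a2 and Fosb. Of those 8, Jund (0.103 in PBS, 0.0999 in G-CSF) and Ier2 (0.193 in PBS, 0.186 in G-CSF) were nearly equal between the groups. The share of all genes with a larger SD in the PBS group was not counted. Neither count is therefore read as particular to these genes. G-CSF replicate 2 was the lowest G-CSF array for 7 genes and replicate 3 for 3, while replicates 1 and 4 were the highest for 5 genes each. In the PBS group, replicate 3 was the lowest for 8 genes and replicate 1 for 2, and replicate 4 was the highest for 5. Averaged over the 10 centred genes, the arrays read 0.03, -0.37, -0.12 and 0.08 in G-CSF replicates 1 to 4, against 0.00, 0.43, -0.56 and 0.52 in PBS replicates 1 to 4. The PBS group thus spanned both the highest and the lowest array of the 8.

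**Figure D3:**
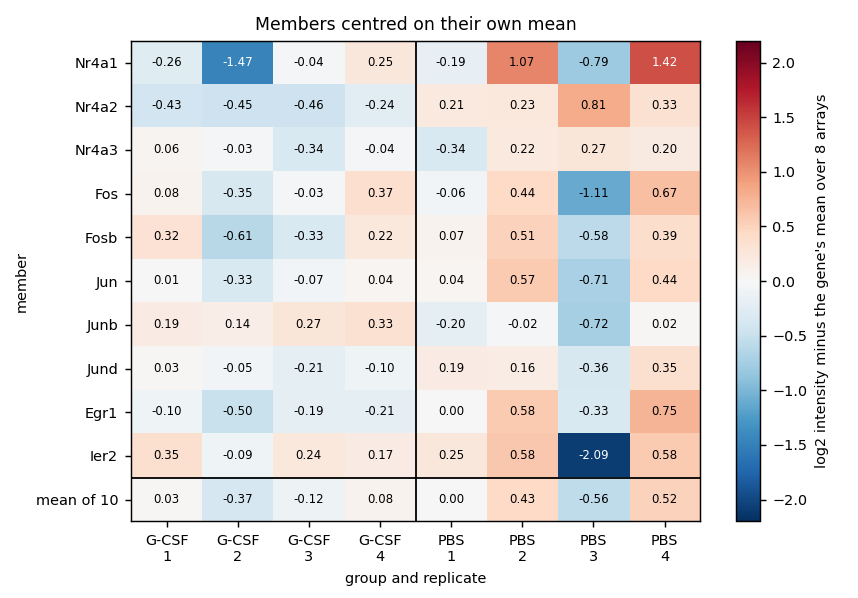
Log2 intensity of each gene minus its own mean over the 8 arrays (colour and printed value), with G-CSF replicates 1 to 4 left of PBS replicates 1 to 4 and the mean of the 10 genes in the bottom row. PBS replicates 2 and 4 are red for 9 and 10 genes, and the PBS replicate 3 column is blue except for Nr4a2 and Nr4a3.

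Over the 8 arrays the members moved together in part. The 45 pairs had a median Pearson correlation of 0.54, from -0.88 between Nr4a2 and Junb to 0.94 between Fos and Jun, and 38 were positive. These are descriptions over 8 arrays that share 1 platform and 1 amplification method, and no p is given. Nr4a1, Fos, Fosb, Jun, Egr1 and Ier2, grouped after their values were seen, correlated at 0.52 to 0.94 in their 15 pairs, with a median of 0.84. Without PBS replicate 3 the median of these pairs was 0.88, and after each gene's group means were taken away as well it was 0.86, so the shared pattern was also there within the groups of the 7 other arrays.

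Nr4a2, Nr4a3 and Junb followed that pattern less closely over the 8 arrays. Nr4a3 correlated with the other members at a median of 0.06 over all arrays and of 0.54 without PBS replicate 3. Over the 7 arrays without PBS replicate 3, Junb had a negative correlation with each of the 9 other members, with a median of -0.36, against 0.26 over all 8. After the group means of the 7 arrays were taken away, its median with the others was 0.71 and 1 of 9 was negative (0.85 over all 8 arrays), so among arrays of the same group Junb ran with the other genes while its group difference ran against them. Nr4a2 correlated at a median of 0.02 with the others over all arrays and at 0.71 without PBS replicate 3. After the group means were taken away these medians were -0.64 over all arrays and 0.47 without that array, so the sign depended on PBS replicate 3, which was high for Nr4a2 and low for 8 of the other members. Junb and Nr4a2 correlated at -0.77 without PBS replicate 3 and, with the group means taken away too, at 0.71.

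**Figure D4:**
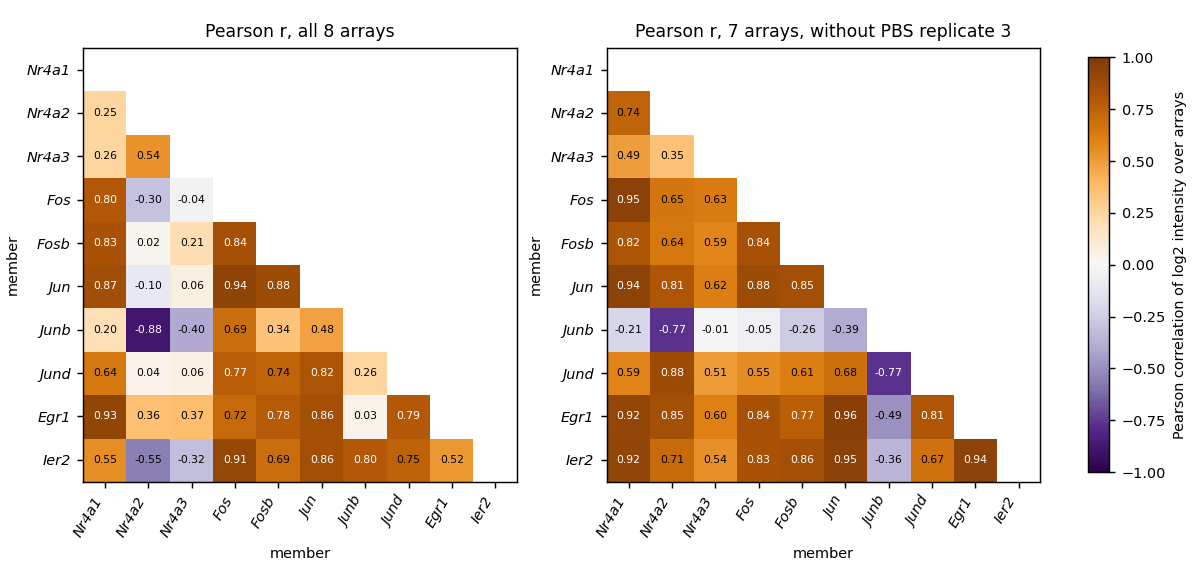
Pearson correlation of log2 intensity for each of the 45 pairs of genes over all 8 arrays (left) and over 7 arrays without PBS replicate 3 (right), with orange for positive and purple for negative values. The row and column of Junb are purple in the right panel, where the pairs of Nr4a1, Fos, Fosb, Jun, Egr1 and Ier2 are all dark orange.

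The genes most like the mean of the 10 members over the 8 arrays, among 9449 brighter named genes outside them, were Lix1l (r = 0.97), the ubiquitin ligase subunit Btrc (0.96), the Wnt receptor Ryk (0.96), Ttc17 (0.95), the methionine salvage enzyme Adi1 (0.95) and Dusp1 (0.95), a phosphatase of MAP kinases that is itself an immediate-early gene. Over 7 arrays, without PBS replicate 3, the order was the adhesion receptor Adgrl2 (0.97), Btrc and Dusp1 (0.96 each), then Spg20 (0.96), Ryk (0.96) and Tent5c (0.95). The mean of the 3 NR4A genes, which includes the dim Nr4a3, was matched best by Adgrl2 (0.97), Mtif2 (0.94) and the CREB-driven kinase Sik1 (0.94). All these genes are the highest of 9449 over few arrays, and unrelated genes can reach high values in such a search, so no link is read from them. Adgrl2 had a log2 fold change of -0.63 ± 0.24 SE and Sik1 of -0.69 ± 0.32 SE (limma adjusted p = 0.5 and 0.551). Dusp1 read 11.52, 11.17, 11.21 and 11.57 in G-CSF replicates 1 to 4, against 11.46, 11.82, 10.63 and 11.80 in PBS replicates 1 to 4, with the same high and low PBS arrays as Fos and Jun.

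Some other immediate-early genes followed the array pattern of the members. Of 45 such genes outside the members, 8 correlated with the mean of the members above 0.8 over 8 arrays, which is 17.8%, and 1.2% of all genes outside the members did. They were Dusp1 (0.95), the NF-kB regulator Nfkbiz (0.94), the clock gene Per1 (0.92), the zinc-finger factor Klf6 (0.90), the small MAF protein Maff (0.90), the messenger-decay protein Zfp36 (0.88), the phosphatase Dusp2 (0.88) and the GTPase Rhob (0.82). Without PBS replicate 3, 7 of the 45 (15.6%) were above 0.8, as were 2.1% of all genes outside the members, and Rhob had 0.73. Most of the 45 were not so alike. Their median correlation was 0.28 over 8 arrays and 0.14 over 7, against -0.16 and 0.05 for all genes outside the members. Others were negative, down to -0.74 for Cebpd over 8 arrays. All genes include dim ones, whereas 35 of the 45 were among the brighter genes, so the shares are not fully comparable. Of the 22 feedback phosphatases and adaptors, 3 (13.6%) were above 0.8 over 8 arrays and 2 (9.09%) over 7. That list shares Dusp1, Dusp2, Dusp5, Dusp6 and Errfi1 with the 45 genes. Dusp1 and Dusp2 were above 0.8 over 8 and over 7 arrays, so they were counted in both lists. Of 23 NR4A and quiescence genes, 0 were above 0.8 over 8 arrays and 3 (13.0%) over 7, and of 17 heat shock and handling genes 0 were in either case. Averaged over those 17 genes, the arrays read 8.90, 8.73, 8.73 and 8.78 in G-CSF replicates 1 to 4, against 8.85, 8.93, 8.83 and 8.77 in PBS replicates 1 to 4, so the groups overlapped. The value of 0.8 was chosen after the correlations were seen.

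None of the 45 other immediate-early genes passed the threshold over all genes in either direction (limma), while 4 were higher and 0 lower at an unadjusted p under 0.05. Their median log2 fold change was 0.05, or -0.02 without PBS replicate 3, against -0.07 and -0.02 for all genes. Among brighter genes only, it was 0.11 for 35 genes of this list and 0.13 for all. Without PBS replicate 3, 5 of the 45 were higher and 1 lower at an unadjusted p under 0.05 (limma). Every G-CSF array lay above every PBS array for 3 of them, or 6.67%, against 3.37% of all genes. Ier3, an early-response gene of cell survival, had log2 intensities of 9.68, 9.43, 9.45 and 9.87 in G-CSF replicates 1 to 4, against 8.62, 8.87, 7.44 and 8.72 in PBS replicates 1 to 4, a log2 fold change of 1.20 ± 0.29 SE (limma adjusted p = 0.242). Gadd45b, a stress-response gene that acts on MAP kinase signalling, had 0.96 ± 0.22 SE (limma adjusted p = 0.208). Fosl2, the FOS family member also called Fra-2, had 0.58 ± 0.21 SE (limma adjusted p = 0.462), on the side of Junb and opposite in sign to Fosb.

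Of 27 AP-1 and bZIP partners, 0 passed over all genes (limma) and 4 were higher and 0 lower at an unadjusted p under 0.05, or 5 higher and 1 lower without PBS replicate 3. The basic leucine zipper repressor Nfil3 had 6.70, 6.78, 5.39 and 6.25 in G-CSF replicates 1 to 4, against 5.28, 4.86, 4.75 and 4.90 in PBS replicates 1 to 4. Its log2 fold change was 1.33 ± 0.29 SE (limma adjusted p = 0.19), and without G-CSF replicate 3 it passed, with 1.63 ± 0.22 SE (limma adjusted p = 0.0337). Batf, which pairs with JUN proteins, had 0.89 ± 0.23 SE (limma adjusted p = 0.29), with all G-CSF arrays above all PBS arrays. The groups did not overlap, with G-CSF above, for 4 of the 27 genes, or 14.8%, against 3.37% of all genes. This list shares Fosl1, Fosl2, Atf3 and Maff with the other immediate-early genes, so the shares of the lists are not independent.

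Upstream and feedback genes did not pass either. Of 37 kinases and of SRF and CREB genes upstream of the members, 0 passed (limma) and 5 were higher and 0 lower at an unadjusted p under 0.05. That count was 1 higher and 1 lower without PBS replicate 3, and 1 higher and 4 lower after quantile normalization, so it depended on that array and on the scaling. Their median log2 fold change was 0.17, and -0.03 without PBS replicate 3. Among brighter genes only, it was 0.18 for 35 genes of this list and 0.13 for all. The kinase Rps6ka3, which acts below ERK, had 1.02 ± 0.30 SE, Map3k8 had 0.62 ± 0.25 SE and the CREB coactivator Crtc2 had 0.51 ± 0.22 SE, with adjusted p of 0.346, 0.518 and 0.532 in limma. Over all genes, 41.7% had a log2 fold change above 0, with a median of -0.07. Of 22 feedback phosphatases and adaptors of MAP kinases, 15 had a negative value, with a median of -0.16, or -0.21 without PBS replicate 3. None passed (limma), and at an unadjusted p under 0.05 there were 0 in either direction over all arrays, but 3 lower without PBS replicate 3 and 6 lower when quantile normalization was used as well. Dusp9 had -0.36 ± 0.18 SE, with every G-CSF array below every PBS array, Rasa1 -0.41 ± 0.23 SE and Dusp14 -0.27 ± 0.17 SE.

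Of 20 EGR and NR4A partners and corepressors, 0 passed (limma), 1 was higher and 0 lower at an unadjusted p under 0.05 and the median was -0.03. That one was Rxrb, a retinoid X receptor, with 0.63 ± 0.25 SE (limma adjusted p = 0.514), while Rcor1 and Trim28 had 0.30 ± 0.16 SE and 0.39 ± 0.21 SE. Of 23 NR4A and quiescence genes, 0 passed (limma), with 2 higher and 2 lower at an unadjusted p under 0.05, or 2 higher and 3 lower without PBS replicate 3. Cdk6, a G1 kinase, had 0.71 ± 0.25 SE, the apoptosis gene Bcl2l11 0.56 ± 0.19 SE and cyclin D1 (Ccnd1), a known AP-1 target, -0.64 ± 0.24 SE, with adjusted p of 0.451, 0.452 and 0.481 in limma. Cebpa, which NR4A receptors are known to raise in mouse stem cells, had 0.00 ± 0.18 SE.

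Heat shock and proliferation genes are given beside these. Of the 17 heat shock and handling genes, 0 passed (limma), with 0 higher and 1 lower at an unadjusted p under 0.05, or 2 lower without PBS replicate 3, and the median log2 fold change was 0.00, or -0.20 after quantile normalization. The endoplasmic reticulum chaperone Dnajb9 had -0.63 ± 0.21 SE, Bag3 0.46 ± 0.23 SE and heme oxygenase (Hmox1) -0.54 ± 0.36 SE, with adjusted p of 0.424, 0.562 and 0.602 in limma. Of 27 S phase and mitosis genes, 0 passed (limma) but 15 were higher and 0 lower at an unadjusted p under 0.05, with a median of 0.65, or 13 higher and 0 lower with a median of 0.45 without PBS replicate 3. On the arrays their mean read 7.63, 7.71, 7.97 and 8.20 in G-CSF replicates 1 to 4, and 7.42, 7.43, 7.07 and 7.16 in PBS replicates 1 to 4. Tpx2 had 1.03 ± 0.25 SE, Ccnb2 1.15 ± 0.29 SE and Mki67 0.71 ± 0.18 SE, with adjusted p of 0.256, 0.275 and 0.292 in limma. Their part in the values of the 10 members was not tested.

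**Figure D5:**
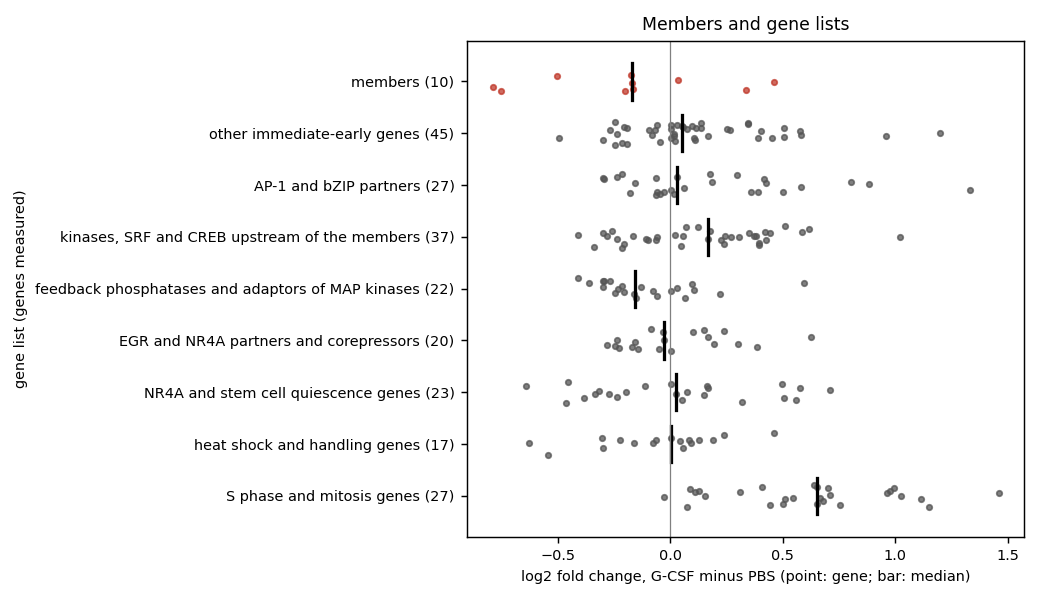
Log2 fold change (G-CSF minus PBS, horizontal axis) of the 10 members (red) and of the genes of 8 lists (grey), with a bar at each median and the number of genes measured in brackets. The member median of -0.17 lies near that of the feedback phosphatases, -0.16, while the S phase and mitosis median is 0.65.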

How the data were processed

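The deposited table holds the authors' linear intensity for each probe set on each array. RMA is named, without version or options, per the submitters' processing notes. The intensities ran from 2.15 to 16162 and log2 was taken before each step. Probe sets with 1 gene symbol in the platform annotation (21789 of 35556) were kept, 1 per gene with the highest mean over 8 arrays, which gave 19938 genes. The fit of G-CSF minus PBS used limma 3.58.1 under R 4.3.3 (eBayes, 2-sided, Benjamini-Hochberg over all genes, threshold 0.05), with no filter on dim genes. The script was tested on simulated arrays. The number of arrays limits the precision, and no detection calls were used.

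The members, lists and alternatives were chosen with earlier results of these data known. Named besides the members were the 3 genes of lowest p in each list, any that passed, the most alike genes, defining markers, and, after their values were seen, the other immediate-early genes above a correlation of 0.8. Probe sets of several or no symbols, 1621 and 12146, were tested only in the alternative that uses all probe sets. The alternatives were another moderation, array weights, a replicate block, a brightness filter, renewed normalization or centring, other probe set rules, other thresholds and leaving out each array. Quantile normalization without PBS replicate 3 was added after the data were seen.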

Additional observations from a re-analysis of the deposited data

Results flagged for a closer look

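In 38 groups of 4 arrays (the 10 members, their mean and 8 list means, each in both groups), an array far from the other 3 was found in 5. Chance alone flags about 1 in 20 independent groups. These groups share arrays and genes, so no excess over chance is read from the count. Nr4a2 in G-CSF replicate 4 was 7.23, and the nearest other G-CSF array was 7.04. Nr4a3 in PBS replicate 1 was 3.98, against 4.52 for the nearest PBS array. Ier2 in PBS replicate 3 was 6.66, against 9.0 for the nearest PBS array. The mean of the AP-1 and bZIP partners in PBS replicate 3 was 6.94, against 7.21, and that of the feedback phosphatases and adaptors of MAP kinases there was 6.68, against 6.99. Of the 5, 3 are PBS replicate 3, the array with the narrow spread over all genes.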

How the results depend on the processing

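None of the 10 members passed the threshold over all genes (limma) under any of 17 alternatives, where Nr4a2 had adjusted p values from 0.0906 with array weights to 0.55 without G-CSF replicate 2. Nr4a1, Nr4a2, Jun, Jund, Fosb and Egr1 kept a negative and Junb a positive log2 fold change in all 17 alternatives. Fos was negative with array weights (-0.28), after quantile normalization (-0.15), without G-CSF replicate 4 (-0.09) and without PBS replicate 3 (-0.33, or -0.44 after quantile normalization), and Ier2 was negative with array weights (-0.20) and without PBS replicate 3 (-0.30, or -0.39 after quantile normalization). Nr4a3 was 0.01 after quantile normalization. The count of all genes higher after G-CSF was 19. It was 37 with array weights, 7 after quantile normalization, 0 with all 35556 probe sets, 52 at an adjusted p under 0.1, 23 with the replicate block and 3 to 30 when 1 array was left out, namely 10, 3, 30 and 7 without G-CSF replicates 1, 2, 3 and 4. The count of lower genes was 0, with 3 under array weights, 1 after quantile normalization without PBS replicate 3, and 0 to 2 when 1 array was left out. Of AP-1 and bZIP partners, 0 to 1 were higher when 1 array was left out. The replicate block changed no call of a member, and deviations of same-numbered arrays correlated at -0.03, 0.06, 0.06 and 0.14. Those of arrays with different numbers correlated at -0.22 to 0.27. So few values cannot tell whether same-numbered arrays were prepared together. The median correlation of the members' pairs was 0.54, and 0.36 by rank, 0.67 without PBS replicate 3, 0.47 after quantile normalization, 0.78 in deviations from group means and 0.66 with both. Without detection calls, the dim Nr4a3 cannot be told from background.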
